A study of Macaca mulatta with 20 samples.

Results

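The genes described here are cell cycle and mitotic spindle genes measured in corpora lutea of rhesus macaques. They were taken by name: gene symbols that begin like those of the centromere proteins (CENP), kinesins (KIF), cyclins A, B, D and E, cell division cycle genes (CDC and CDCA), cyclin-dependent kinases (CDK), BUB, Aurora and Polo-like kinases, MCM helicase subunits, non-SMC condensin subunits (NCAP), origin recognition subunits (ORC) and E2F factors, with MKI67, ANLN, TOP2A, PCNA, RRM1 and RRM2 added. The rule found 140 genes among 14132 genes that had a probe set with 1 symbol on the Affymetrix rhesus array. The rule reads gene names alone, but it and the role lists were set with earlier results of these data known. A name does not fix a role. Of the 140, 82 were placed in lists of DNA replication, chromosome segregation or their control, and are called genes with cell cycle roles below. The other 58 were mostly transport kinesins, CDC42 and its effectors, transcriptional or neuronal CDKs and other genes that share a name stem. The split is not clean, since CDK7, CCNB3, KIF2A and CDC14A, which also have known cell cycle roles, are among the 58. Several well known members, among them RRM2, PLK1, BUB1, BUB1B, CDC20, KIF11, MCM7 and CCND2, had no probe set with 1 symbol and were not analysed here.

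After ovulation the emptied follicle becomes the corpus luteum, which makes progesterone, and in primates it regresses unless chorionic gonadotropin from an embryo rescues it. In the study, early pregnancy was simulated by injecting female macaques intramuscularly with recombinant human chorionic gonadotropin (hCG) 2 times a day from luteal day 9, in 9 rising doses of 15 to 2880 IU. The groups were corpora lutea of luteal day 10 from untreated females and corpora lutea of luteal days 10, 12, 15 and 18 from females given hCG for 1, 3, 6 and 9 days, with 4 arrays in each group and 20 in all. Untreated tissue was collected on day 10 alone, so beyond the day 10 comparison hCG duration, dose and luteal age change together and cannot be told apart. Whether the 4 glands of a group came from 4 females is not in the labels. The p-values then cover only sample-to-sample spread, which may be technical.

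A dividing cell passes from G1 through DNA synthesis to mitosis. D and E cyclins with their kinases release E2F transcription factors from the RB protein, and E2F factors then raise the genes for DNA replication. The origin recognition complex and CDC6 load the MCM proteins at replication origins. The MCM helicase unwinds the DNA, and PCNA holds the polymerases on the template. Cyclins A and B with CDK1 bring the cell into mitosis, where CENP proteins build the kinetochore, kinesins and Aurora kinases run the spindle, condensin compacts chromosomes, and anillin marks the cleavage furrow. Transcripts of the mitotic genes are known to be made mainly late in the cycle of dividing cells. In the corpus luteum, endothelial and other stromal cells are known to divide while steroid-making luteal cells are largely thought to have left the cycle.

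Values are linear signals per probe set that the authors' software had scaled to a like trimmed mean in every array (200.01 to 200.02 signal units), so a level of one probe set is not set against that of another. Each gene is represented by its probe set with the highest mean. A gene is called here when its adjusted p was under 0.05 in limma, a linear model with moderated variances, fitted on log2(signal + 16) over all 52707 probe sets with Benjamini-Hochberg adjustment. Of the members, 119 had a mean log2 signal above the median of all probe sets and 21 had one at or below it. The tissue expressed the luteal marker genes, and the 7 measured of 13 had a summed signal between 41370 and 66605 in every array. Along one principal component that held 8.4% of the variance, 3 arrays stood apart (replicate 2 of the untreated arrays, replicate 1 of hCG day 12 and replicate 2 of hCG day 15), at -54.8 to -50.2 against -4.8 to 23.6 in the other 17, so the main counts are also given without them. The median log2 signal of all probe sets lay 0.049 to 0.143 below that of the untreated arrays in the hCG groups. The cause of that shift was not tested.

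In many mitotic and replication genes the mean signal was lower on each later day of hCG. By limma's moderated F test over the 5 groups 36 of the 140 members were called, beside 7.01% of all genes tested, and 31 were called without the 3 arrays that stood apart. In 31 members, 22.1%, the group mean was lower at every step from untreated day 10 to hCG day 10, 12, 15 and 18, against 2.41% of all genes. The mean on hCG day 18 was the lowest of the 5 in 80 members, 57.1%, against 26.5% of all genes. The genes placed in the cell cycle lists carried most of this, with every step downward in 27 of 82, or 32.9%, against 4 of the other 58, or 6.9%. Tissue RNA was measured, so fewer dividing cells and less RNA of these genes per cell cannot be told apart.

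The median over the 82 genes shows the same course array by array. On the log2(signal + 16) scale, with each gene centred on its mean over the 20 arrays, the median was 0.35, 0.20, 0.39 and 0.22 in the 4 untreated arrays. It was 0.18, -0.003, 0.27 and 0.26 on hCG day 10, 0.07, 0.17, 0.13 and 0.05 on hCG day 12, -0.19, -0.25, 0.001 and -0.17 on hCG day 15, and -0.34, -0.37, -0.22 and -0.40 on hCG day 18. All hCG day 18 arrays lay below all arrays of untreated day 10, hCG day 10 and hCG day 12. The hCG day 15 and day 18 arrays overlapped, with hCG day 15 replicate 3 the highest of the 8. The median over the 58 other members stayed between -0.14 and 0.10 in all 20 arrays.

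**Figure D1:**
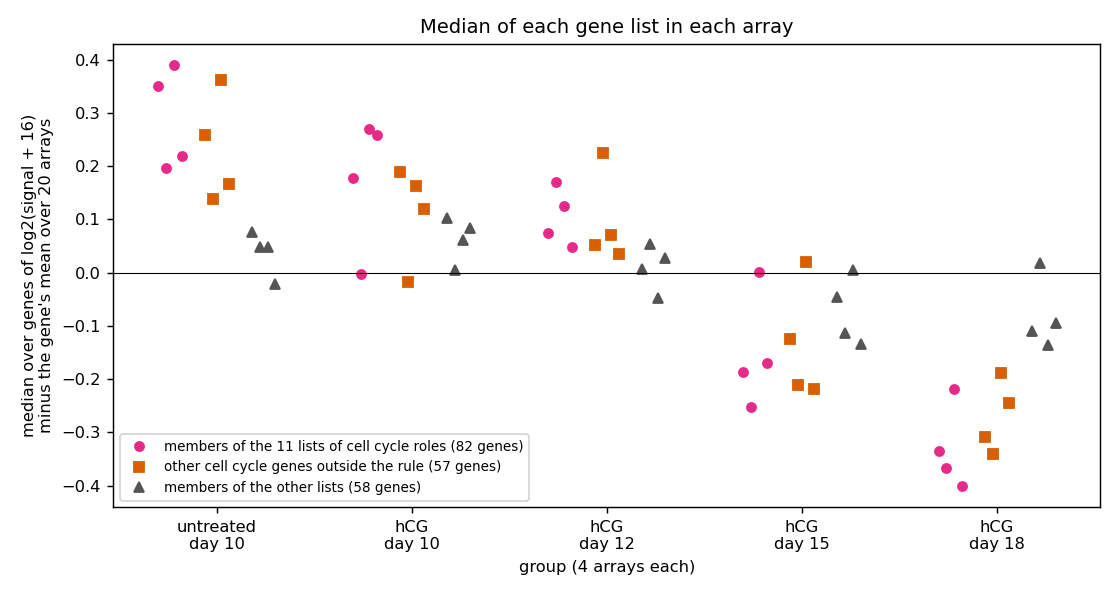
Median over the genes of a list, in log2(signal + 16) centred on each gene's mean over 20 arrays, in each of the 4 arrays of a group, from untreated day 10 to hCG day 18. The 82 genes with cell cycle roles lie between 0.20 and 0.39 in untreated arrays and between -0.40 and -0.22 on hCG day 18, while the 58 other members stay between -0.14 and 0.10.

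Against untreated day 10, 35 members were lower and 1 was higher on hCG day 18 after 9 days of hCG, beside 3.31% and 2.78% of all genes tested. Of these 36 calls, 34 of the lower genes and the higher one belonged to the 82 with cell cycle roles. The median log2 change was -0.50 over the 82 and -0.18 over the other 58, against -0.03 over all genes. A total of 75 of the 82 had a change below 0, which is 91.5%, against 54.5% of all genes. Without the 3 arrays that stood apart 33 members were called, and 32 of the 36 were among them.

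The cyclins that drive mitosis fell together with their kinase. CCNB1, cyclin B1, had signals of 454, 406, 586 and 329 in untreated arrays, 492, 282, 435 and 337 on hCG day 10, 348, 383, 341 and 303 on hCG day 12, 165, 150, 257 and 152 on hCG day 15, and 91.0, 108, 147 and 92.7 on hCG day 18. Every hCG day 15 and day 18 array lay below every untreated array, and hCG day 10 and day 12 overlapped untreated. On the log2 scale it was 1.86 below untreated on hCG day 18 (log2 change -1.86 ± 0.20, SE, n = 4 per group, 3.64-fold lower, adjusted p = 3.1e-05, limma). CCNB2, cyclin B2, had signals of 48.3, 51.6, 93.2 and 52.9 on hCG day 18 and 269, 202, 322 and 195 in untreated arrays, with no overlap (-1.77 ± 0.23, adjusted p = 0.00017, limma). CCNA2, cyclin A2, which acts from S phase into mitosis, had 209, 142, 154 and 184 on hCG day 18 and 431, 389, 481 and 516 in untreated arrays (-1.33 ± 0.16, adjusted p = 7.8e-05, limma). CCNA2 was again below every untreated array on hCG day 18. CDK1, the kinase that cyclins A and B activate, had 96.2, 89.3, 175 and 99.2 on hCG day 18 against 322, 356, 311 and 279 in untreated arrays, and fell 2.61-fold (-1.39 ± 0.26, adjusted p = 0.0037, limma). On hCG day 15 CDK1 ranged from 93.3 to 290, overlapped the untreated arrays and was not called (-0.72 ± 0.26, adjusted p = 0.23, limma). Of its 2 further probe sets 1 was called lower on that day (-1.10, adjusted p = 0.011) and 1 was not (-1.09, adjusted p = 0.33). CDC25C, a phosphatase that activates CDK1, was lower on hCG day 18 (-0.83 ± 0.15, adjusted p = 0.0034, limma), with means of 24.3 ± 3.48 on hCG day 18 and 56.2 ± 13.0 in untreated arrays (SD, n = 4 each). In this list of 8 genes 5 fell and none rose on hCG day 18, and the 3 not called were CDC25A (-0.64), CCNA1 (-0.76) and CDC25B (-0.14).

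**Figure D2:**
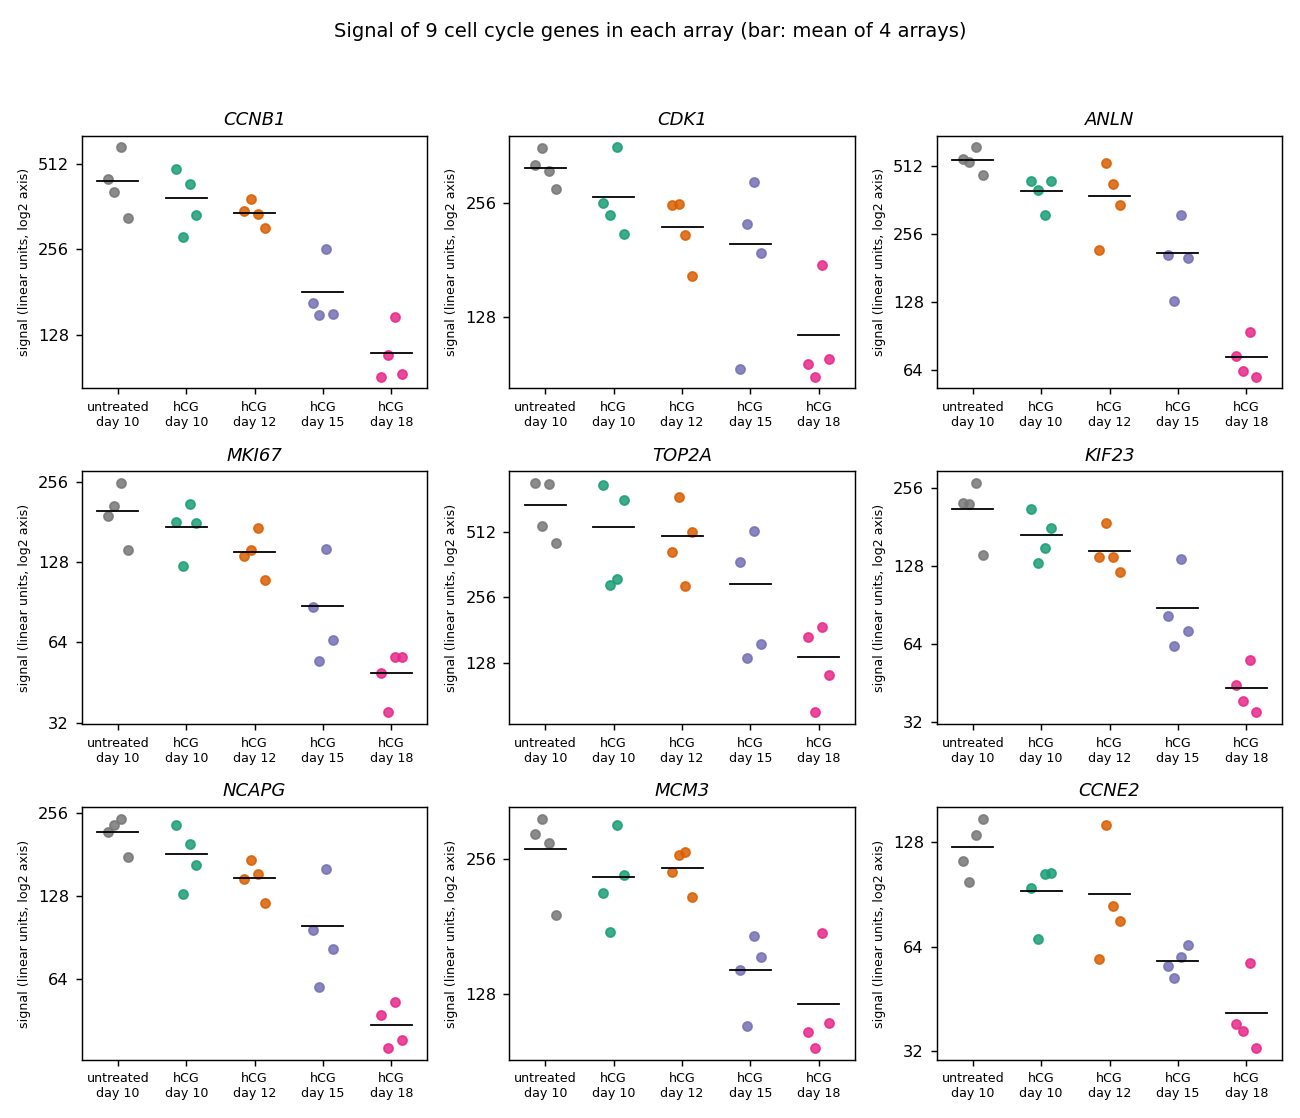
Signal in linear units on a log2 axis of 9 cell cycle genes in each array (points) with the mean of 4 arrays (bar), in the 5 groups from untreated day 10 to hCG day 18. CCNB1 has 91.0 to 147 on hCG day 18 and 329 to 586 in untreated arrays, and ANLN has 59.9 to 94.3 on hCG day 18 and 468 to 622 in untreated arrays.

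Anillin showed the largest change among the members on hCG day 18. ANLN, which encodes this scaffold protein of the cleavage furrow, had 552, 536, 622 and 468 in untreated arrays, 442, 403, 311 and 440 on hCG day 10, 218, 531, 426 and 344 on hCG day 12, 207, 129, 313 and 200 on hCG day 15, and 73.6, 63.5, 94.3 and 59.9 on hCG day 18. All hCG day 18 arrays were below all other arrays. The fall against untreated was 6.35-fold (-2.67 ± 0.24, adjusted p = 6.6e-06, limma). MKI67, the Ki-67 protein that coats mitotic chromosomes and serves as a marker of dividing cells, had 49.1, 34.9, 56.3 and 56.2 on hCG day 18 against 191, 207, 253 and 142 in untreated arrays, with no overlap (-1.70 ± 0.23, adjusted p = 0.00019, limma). CDCA2, a chromosome-bound regulator of a protein phosphatase, had 19.2, 23.0, 23.2 and 16.2 on hCG day 18 against 59.4, 69.6, 81.3 and 77.4 in untreated arrays (-1.27 ± 0.12, adjusted p = 7.3e-06, limma). For CDCA2 the hCG day 15 and day 18 arrays lay below all arrays of the other 3 groups. CDCA8, borealin of the chromosomal passenger complex, fell 2.10-fold (-1.07 ± 0.13), and CDCA3, which is known to take part in the degradation of a mitosis inhibitor, fell 2.04-fold (-1.03 ± 0.17). CDCA7L, named for its likeness to CDCA7, was not called (-0.09, adjusted p = 0.94, limma), so 5 of this list of 6 fell and none rose.

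Of 6 kinesins with mitotic roles 4 fell on hCG day 18 and none rose. KIF23, a kinesin of the central spindle in cytokinesis, had 44.6, 38.7, 55.5 and 34.9 on hCG day 18 against 224, 223, 269 and 141 in untreated arrays, with no overlap, and fell 3.82-fold (-1.93 ± 0.21, adjusted p = 3.1e-05, limma). KIF2C, a microtubule-depolymerising kinesin of the centromere, had 48.5, 53.9, 75.0 and 39.5 on hCG day 18 against 174, 171, 211 and 135 in untreated arrays (-1.44 ± 0.17, adjusted p = 6.2e-05, limma). KIF18A, which damps the movement of chromosomes at metaphase, fell by 1.29 ± 0.18 on the log2 scale, and KIF4A, a chromosome-bound kinesin, fell by 0.93 ± 0.18. KIF20B and KIF22, also motors of dividing cells, were not called, at -0.15 and -0.36. Among the 23 kinesins outside the mitotic list, KIF2A among them, none was called on hCG day 18 in either direction. Of these, 8 had an unadjusted p under 0.05 by limma, without the share of all genes beside it. The median log2 change of the 23 was -0.18, and the difference from the mitotic kinesins was not tested. KIF5B, the ubiquitous conventional kinesin, averaged 4333 ± 193 on hCG day 18 and 4908 ± 508 in untreated arrays (SD, n = 4 each).

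Condensin was measured through NCAPG, NCAPG2, NCAPD3 and NCAPH2. NCAPG, a subunit of condensin I, had 47.5, 36.1, 52.9 and 38.7 on hCG day 18 against 219, 230, 243 and 177 in untreated arrays. All hCG day 18 arrays were below all other arrays, and the fall was 3.90-fold (-1.96 ± 0.21, adjusted p = 2.4e-05, limma). The 3 subunits of condensin II were not called on hCG day 18, with NCAPG2 at -0.43, NCAPD3 at -0.19 and NCAPH2 at 0.02.

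Of 19 genes listed under kinetochore and centromere, with CENPJ, a centriole protein, among them, 7 fell and 1 rose on hCG day 18. CENPF, a large protein of the outer kinetochore, had 188, 111, 145 and 123 on hCG day 18 against 527, 479, 573 and 374 in untreated arrays, and fell 3.21-fold (-1.68 ± 0.19, adjusted p = 3.6e-05, limma). CENPE, the kinesin that links kinetochores to microtubules, had 47.4, 41.2, 48.0 and 28.2 on hCG day 18 against 98.6, 84.5, 99.5 and 93.9 in untreated arrays (-0.96 ± 0.14, adjusted p = 0.0004, limma). In both genes the hCG day 18 and untreated arrays did not overlap. CENPA, the histone H3 variant that marks centromeres, fell by 0.93 ± 0.20 on the log2 scale, and CENPW, CENPK, CENPU and CENPN of the inner kinetochore fell by 1.00, 0.90, 0.82 and 0.79. Further probe sets of CENPK were not called (-0.50 and -0.45, adjusted p = 0.23 and 0.15, limma). CENPB, CENPC, CENPH, CENPI, CENPJ, CENPL, CENPM, CENPO, CENPT, CENPV and CENPX were not called. The one that rose was BUB3, described below with the other exceptions.

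Among 5 Aurora and Polo-like kinases AURKA alone was called on hCG day 18. AURKA, the kinase of the spindle poles, had 75.6, 69.5, 95.6 and 53.1 on hCG day 18 against 151, 112, 149 and 156 in untreated arrays, with no overlap (-0.83 ± 0.20, adjusted p = 0.024, limma). The call ended without untreated replicate 1, 3 or 4 or hCG day 18 replicate 2 or 4, with adjusted p up to 0.09. Further probe sets of AURKA were not called on hCG day 18 (-0.79 and -0.11, adjusted p = 0.15 and 0.85, limma). AURKB, the kinase of the chromosomal passenger complex, had 181, 217, 212 and 153 on hCG day 18 against 304, 278, 309 and 207 in untreated arrays (-0.49 ± 0.15, adjusted p = 0.076, limma), and was called by the F test (adjusted p = 0.026), a call that ended without hCG day 15 replicate 1, 2 or 4 or hCG day 18 replicate 1 and without the 3 arrays that stood apart (adjusted p = 0.11). AURKC, known mainly from germ cells, varied from 3.34 to 225 on hCG day 18 and from 5.27 to 206 in untreated arrays. PLK2 and PLK3 were not called, at -0.15 and -0.42. CDC16 and CDC26, subunits of the anaphase-promoting complex, were not called either, at -0.19 and -0.03.

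**Figure D3:**
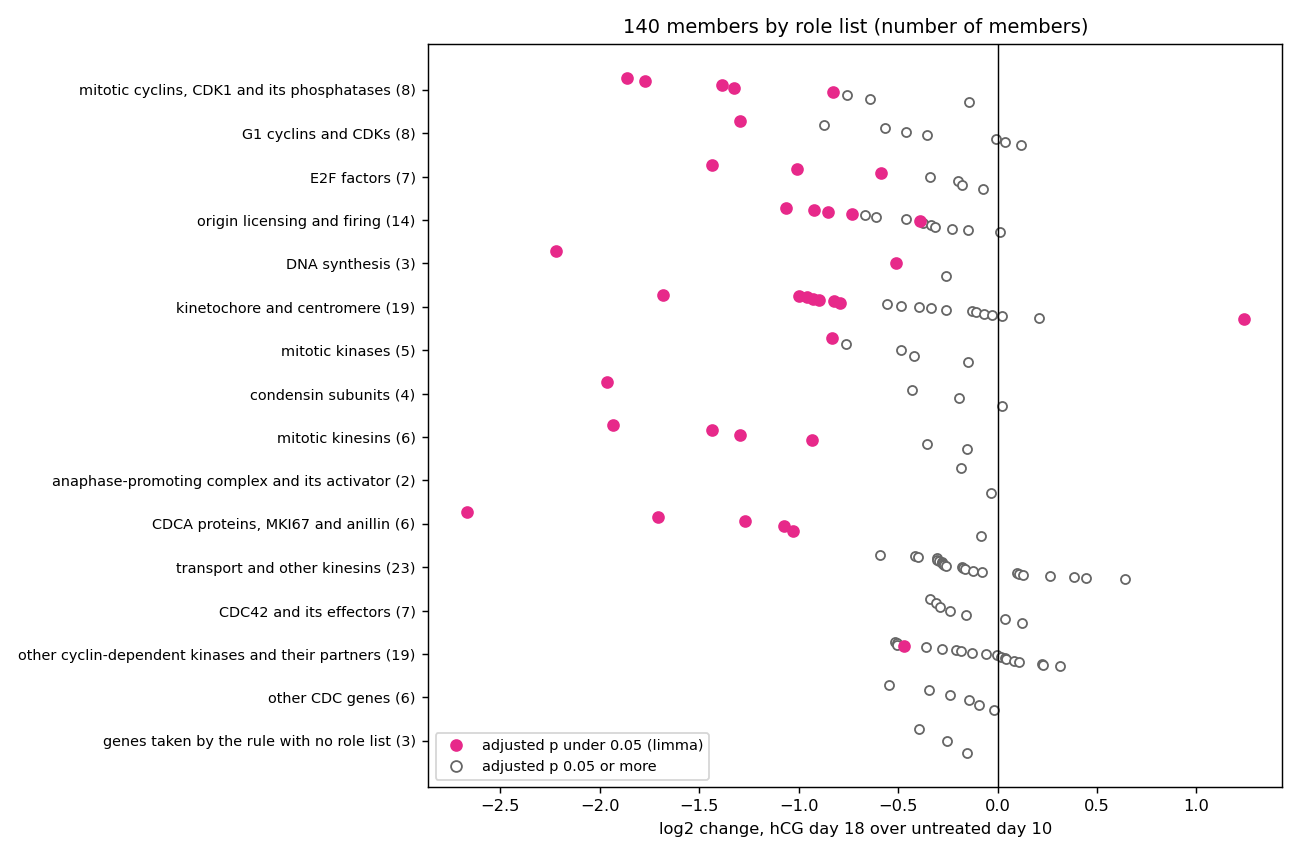
Log2 change on hCG day 18 over untreated day 10 of the 140 members (points), one row per role list with its number of members; filled points had an adjusted p under 0.05 by limma. The filled points of the 11 upper lists reach -2.67 for ANLN, BUB3 is the one filled point above 0 at 1.24, and CDK16 is the only filled point of the 5 lower lists.

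Of 14 genes listed under origin licensing and firing, with MCM8 and MCM9, known mainly from repair, among them, 5 fell on hCG day 18. None of the 14 rose, and of 3 genes of DNA synthesis 2 fell. MCM3, a subunit of the replicative helicase, had 105, 96.6, 175 and 110 on hCG day 18 against 292, 315, 278 and 192 in untreated arrays, with no overlap (-1.06 ± 0.19, adjusted p = 0.003, limma). CDC45, which activates that helicase, had 22.5, 39.0, 33.3 and 45.9 on hCG day 18 against 76.4, 78.8, 97.6 and 67.5 in untreated arrays (-0.92 ± 0.16, adjusted p = 0.0016, limma). MCM5, CDC6 and ORC5 fell by 0.85, 0.73 and 0.39 on the log2 scale. Their calls were among the less stable ones given below. MCM2, another helicase subunit, had 211, 297, 252 and 207 on hCG day 18 and 293, 344, 316 and 258 in untreated arrays, which overlap, and was not called (-0.32 ± 0.15, adjusted p = 0.33, limma). TOP2A, the topoisomerase that untangles replicated DNA, had 169, 75.3, 187 and 112 on hCG day 18 against 867, 548, 859 and 455 in untreated arrays, and fell 4.66-fold (-2.22 ± 0.43, adjusted p = 0.0045, limma). On hCG day 15 its arrays were split between 372 and 518 in replicates 1 and 3 and 135 and 156 in replicates 2 and 4, and it was not called (-1.31, adjusted p = 0.17, limma), though its second probe set was (-1.04, adjusted p = 0.041). PCNA, the sliding clamp of the replicative polymerases, which also serves in repair, had 1136, 1134, 1251 and 1097 on hCG day 18 against 1782, 2044, 1452 and 1402 in untreated arrays. It did not overlap and fell 1.43-fold (-0.51 ± 0.12, adjusted p = 0.023, limma). RRM1, the large subunit of ribonucleotide reductase, averaged 591 ± 64.4 on hCG day 18 and 714 ± 110 in untreated arrays (SD, n = 4 each) and was not called (-0.26, adjusted p = 0.42, limma).

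In the G1 list CCNE2 fell and the other 7 genes were not called. CCNE2, cyclin E2, had 38.4, 36.4, 57.3 and 32.6 on hCG day 18 against 113, 98.1, 134 and 150 in untreated arrays, with no overlap (-1.29 ± 0.20, adjusted p = 0.00066, limma). CCNE1, cyclin E1, had 44.0, 66.8, 60.3 and 55.7 on hCG day 18 against 103, 96.8, 73.9 and 91.5 in untreated arrays. Its arrays did not overlap either, and its adjusted p was 0.059 by limma (-0.57 ± 0.16). CCND1, cyclin D1, varied within groups, with 332, 162, 154 and 339 on hCG day 18 and 515, 323, 482 and 453 in untreated arrays, and was not called (-0.87, adjusted p = 0.24, limma). CCND3, cyclin D3, averaged 864 ± 105 on hCG day 18 and 867 ± 104 in untreated arrays (SD, n = 4 each), with a log2 change of -0.01 ± 0.18. CDK4, the partner of D cyclins, was not called against untreated (-0.46, adjusted p = 0.12, limma), and CDK2 and CDK6 were at -0.36 and 0.04.

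Of 7 E2F factors the 2 atypical repressors, E2F7 and E2F8, and the activator E2F2 fell on hCG day 18. E2F7 had 88.3, 79.5, 109 and 90.4 in untreated arrays, 57.4, 37.6, 49.6 and 48.6 on hCG day 10, 55.8, 77.6, 66.9 and 61.0 on hCG day 12, 46.2, 27.8, 52.0 and 37.7 on hCG day 15, and 23.1, 25.0, 28.2 and 18.8 on hCG day 18. Each hCG group lay below the untreated arrays without overlap, and hCG days 10 and 12 overlapped. The change on hCG day 18 was -1.44 ± 0.15 (adjusted p = 1.3e-05, limma). A weaker second probe set of E2F7, with a mean signal of 10.9, was at -0.36 and was not called. E2F8 averaged 22.3 ± 7.77 on hCG day 18 and 61.4 ± 17.3 in untreated arrays (SD, n = 4 each; log2 change -1.01 ± 0.23). E2F2 was close to the threshold (-0.58 ± 0.16, adjusted p = 0.048, limma). E2F3, E2F4 and E2F5 were not called, at -0.20, -0.07 and -0.34. E2F1, the activator best known from the RB pathway, had 39.4, 167, 88.3 and 91.8 on hCG day 18 and 126, 39.5, 146 and 130 in untreated arrays, and was not called (-0.18, adjusted p = 0.9, limma).

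The calls on hCG day 18 did not rest equally firmly. Leaving out each of the 20 arrays in turn kept 28 of the 36 calls in every fit. The 8 that ended in at least 1 fit were AURKA, CDC6, CDK16, E2F2, E2F8, MCM5, ORC5 and PCNA. The highest adjusted p in those fits ran from 0.062 for E2F8, without untreated replicate 1 or 3 or hCG day 18 replicate 2, to 0.16 for E2F2, whose call ended in 16 of the 20 fits, as did that of ORC5. CDC6 was lost without untreated replicate 1 or 3 or hCG day 18 replicate 1 or 2. MCM5 was lost without untreated replicate 1, 2 or 3 or hCG day 18 replicate 2 or 4, and PCNA without untreated replicate 1 or 2 or hCG day 18 replicate 1, 2 or 4. CDK16 was lost without untreated replicate 1, 2 or 4 or hCG day 18 replicate 1, 3 or 4. Without the 3 arrays that stood apart the calls of CDK16, E2F2, MCM5 and PCNA ended. Those of CENPN, for which 1 of 2 other probe sets was also called lower (-0.81, adjusted p = 0.013), and of CENPU, whose other probe set was at -0.07, ended when probe sets of a gene were averaged (adjusted p = 0.083 and 0.10, limma). Averaging also ended the calls of CDK16, E2F2 and ORC5. The ORC5 call ended in 6 settings besides the fits with 1 array left out, with an adjusted p of up to 0.68 (limma).

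After 6 days of hCG fewer members were called. On hCG day 15, 17 members were lower and 1 was higher than in untreated arrays, beside 0.998% and 0.969% of all genes tested, and all 18 belonged to the 82 genes with cell cycle roles. The median log2 change was -0.37 over the 82, -0.09 over the other 58 and -0.03 over all genes. ANLN was at -1.35 ± 0.24 (adjusted p = 0.0066, limma), CCNB1 at -1.23 ± 0.20 (adjusted p = 0.004), and CDCA2 at -0.77 ± 0.12 (adjusted p = 0.0023). Also lower were KIF23 (-1.15), MKI67 (-1.10), CCNB2 (-1.09), NCAPG (-1.07), E2F7 (-0.93), CCNE2 (-0.90), KIF18A (-0.87), CCNA2 (-0.86), CENPW (-0.84), MCM3 (-0.82), KIF2C (-0.76), CDC45 (-0.66), CDCA8 (-0.65) and CENPE (-0.60). This count was less stable than that on hCG day 18. It was 11 after each array was centred on its median, 6 without the 3 arrays that stood apart, 9 without untreated replicate 1, 8 without untreated replicate 3, and 11, 9 and 8 without hCG day 15 replicate 1, 2 or 4. In every fit with 1 array left out 7 of the 18 calls were kept, and ANLN, BUB3 and CCNA2 were kept in every other setting as well. Within its group hCG day 15 replicate 3 had the highest CCNB1 (257), MKI67 (143), ANLN (313) and NCAPG (160).

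After 1 and 3 days of hCG few or no members were called. On hCG day 10, against untreated tissue of the same luteal day, 2 members were higher, beside 1.12% of all genes tested, and 1 was lower, beside 0.425%. KIF16B and CDK16 rose and E2F7 fell by 0.75 ± 0.15 on the log2 scale (adjusted p = 0.015, limma). The E2F7 call ended without untreated replicate 3 or hCG day 10 replicate 2, and also with probe sets averaged or from the 8 arrays of these groups alone, with an adjusted p of up to 0.074. Averaging ended the E2F7 calls on hCG day 15 against untreated (adjusted p = 0.066 at most) and on hCG day 18 against hCG day 10 (adjusted p = 0.39) as well. On hCG day 10, 16 members had an unadjusted p under 0.05. The share of all genes under that level is not given for any comparison here, so such counts carry no conclusion. On hCG day 12 no member was called by limma against untreated, beside 0.453% of all genes in either direction, and 16 members had an unadjusted p under 0.05. In 10 members all 4 hCG day 12 arrays were below all untreated arrays, beside 3.23% of all genes. The smallest adjusted p-values there were those of KIF18A (-0.67 ± 0.18, adjusted p = 0.13), CCNA2 (-0.57 ± 0.16, adjusted p = 0.19) and CENPE (-0.47 ± 0.14, adjusted p = 0.21). KIF18A had 32.3, 36.6, 22.1 and 30.8 on hCG day 12 against 51.4, 71.3, 67.3 and 43.4 in untreated arrays, with no overlap.

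**Figure D4:**
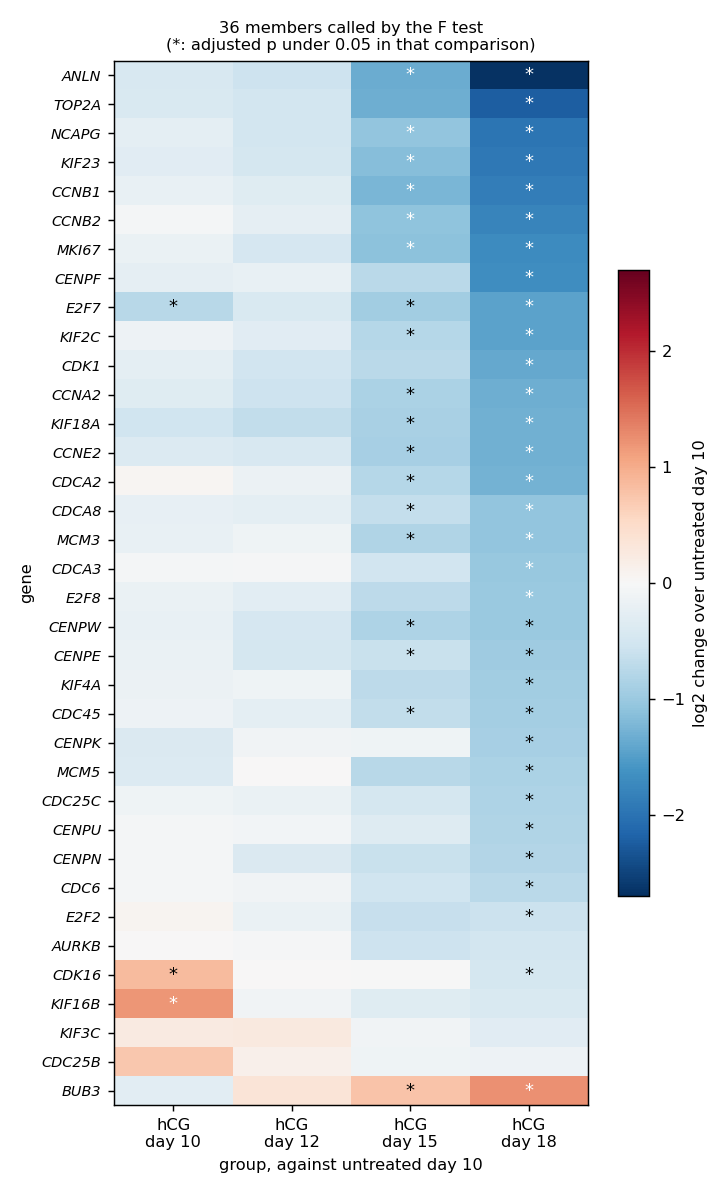
Log2 change over untreated day 10 (colour) on hCG days 10, 12, 15 and 18 of the 36 members called by the F test, ordered by the change on hCG day 18; an asterisk marks an adjusted p under 0.05 by limma in that comparison. All 4 columns share the untreated arrays; most genes are pale on hCG days 10 and 12, ANLN reaches -2.67 and BUB3 1.24 on hCG day 18, and CDK16 and KIF16B are at 0.86 and 1.18 on hCG day 10.

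No single step late in the hCG course gave a call. Between hCG day 15 and hCG day 12 no member and no gene of all tested was called by limma (0%). In that step 29 members had an unadjusted p under 0.05, and the share of all genes is not given. In 15 members all hCG day 15 arrays lay below all hCG day 12 arrays, beside 1.97% of all genes. CDCA2 had 28.3, 36.8, 39.8 and 37.4 on hCG day 15 against 66.6, 60.8, 61.4 and 60.8 on hCG day 12 (-0.61 ± 0.12, adjusted p = 0.22, limma). CCNB1 was at -0.90 ± 0.20 and MCM3 at -0.70 ± 0.19 in that step. Between hCG day 18 and hCG day 15 again no member and no gene was called by limma (0%). Here 26 members had an unadjusted p under 0.05, also without the share of all genes. There, too, 15 members had no overlap downward, beside 2.59% of all genes. ANLN (-1.32 ± 0.24), CENPF (-0.96 ± 0.19) and NCAPG (-0.89 ± 0.21) had the smallest adjusted p-values, 0.27, 0.27 and 0.33.

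Days of hCG treatment were also set against each other, in the same fit of all 20 arrays, whose untreated arrays still enter the estimate of the spread. On hCG day 18 against hCG day 10, 38 members were lower and 1 was higher, beside 5.09% and 2.87% of all genes tested, and 39 were called without the 3 arrays that stood apart. The median log2 change was -0.46 over the 82 genes with cell cycle roles, -0.10 over the other 58 and -0.01 over all genes. CDCA2 (-1.33 ± 0.12, adjusted p = 2.8e-06, limma), ANLN (-2.23 ± 0.24, adjusted p = 1.6e-05) and CCNB1 (-1.67 ± 0.20, adjusted p = 5.4e-05) fell here as well. CDK4 fell by 0.60 ± 0.16, with 638, 726, 879 and 611 on hCG day 18 against 1014, 1078, 1338 and 923 on hCG day 10 and no overlap, though its call ended in 5 of the 20 fits with 1 array left out. In every such fit 24 of the 39 calls were kept. On hCG day 15 against hCG day 10, 10 members were lower and 1 was higher, beside 2% and 0.941% of all genes tested. The lower ones included AURKB (-0.59 ± 0.15, adjusted p = 0.045, limma), with 161, 165, 213 and 176 on hCG day 15 against 244, 243, 343 and 282 on hCG day 10. The AURKB call ended in 15 of the 20 fits with 1 array left out and in 6 other settings, with an adjusted p of up to 0.17. This count was 5 without the 3 arrays that stood apart, 17 without hCG day 10 replicate 2, 7, 5 and 6 without hCG day 10 replicate 1, 3 or 4, and 5, 6 and 5 without hCG day 15 replicate 1, 2 or 4.

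BUB3 ran against the other members. BUB3 encodes a protein of the spindle checkpoint that is also known to act in RNA splicing, and it had 2603, 2793, 2459 and 2430 in untreated arrays, 2339, 1847, 2111 and 2164 on hCG day 10, 4183, 2240, 3471 and 3573 on hCG day 12, 4293, 4820, 4093 and 4511 on hCG day 15, and 5388, 6106, 6059 and 6824 on hCG day 18. The hCG day 15 and day 18 arrays were above all arrays of untreated day 10 and hCG day 10, and hCG day 18 was above all others. It rose 2.36-fold on hCG day 18 against untreated (1.24 ± 0.15, adjusted p = 6.9e-05, limma) and 2.87-fold against hCG day 10 (1.52 ± 0.15, adjusted p = 6.8e-06). Neither call ended in any setting tried. BUB3 has 1 probe set with 1 symbol on the array, so no second one could be set beside it.

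CDK16 and KIF16B peaked after 1 day of hCG. CDK16, a kinase of the PCTAIRE subfamily that is known from differentiated cells, had 1282, 1310, 1107 and 1255 in untreated arrays, 2028, 2310, 2218 and 2486 on hCG day 10, 1229, 1460, 1046 and 1291 on hCG day 12, 1297, 1201, 1204 and 1180 on hCG day 15, and 855, 1046, 808 and 859 on hCG day 18. All hCG day 10 arrays were above all other arrays, and hCG day 18 lay below all arrays of the other groups, by little for hCG day 12, whose lowest array was at 1046. CDK16 rose 1.81-fold on hCG day 10 (0.86 ± 0.12, adjusted p = 0.001, limma), was lower by 0.85 ± 0.12 on hCG day 12 than on hCG day 10 (adjusted p = 0.0013), and fell below untreated on hCG day 18 (-0.47 ± 0.12, adjusted p = 0.027). All 3 other probe sets of CDK16 were higher on hCG day 10 too, at 1.51, 1.20 and 1.02, each with an adjusted p under the threshold. On hCG day 18 against untreated none of the 3 was called (-0.47, -0.46 and -0.10), and the call of CDK16 on that day ended when its probe sets were averaged. KIF16B, a motor of early endosomes, had 91.6, 72.4, 82.3 and 92.9 on hCG day 10 against 39.7, 30.2, 19.8 and 25.6 in untreated arrays, and rose 2.27-fold (1.18 ± 0.18, adjusted p = 0.002, limma). On hCG day 12 KIF16B had 22.0, 24.7, 19.6 and 38.4, below all hCG day 10 arrays (-1.27 ± 0.18, adjusted p = 0.0013, limma). KIF16B and CDK16 were the only 2 members lower on hCG day 12 than on hCG day 10, beside 0.601% of all genes tested. CDC25B, a phosphatase that starts the activation of CDK1, had 335, 299, 532 and 545 on hCG day 10 against 240, 286, 238 and 215 in untreated arrays. Its groups did not overlap, but it was not called (0.73 ± 0.19, adjusted p = 0.082, limma). It fell on hCG day 18 against hCG day 10 (-0.87 ± 0.19, adjusted p = 0.0094).

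**Figure D5:**
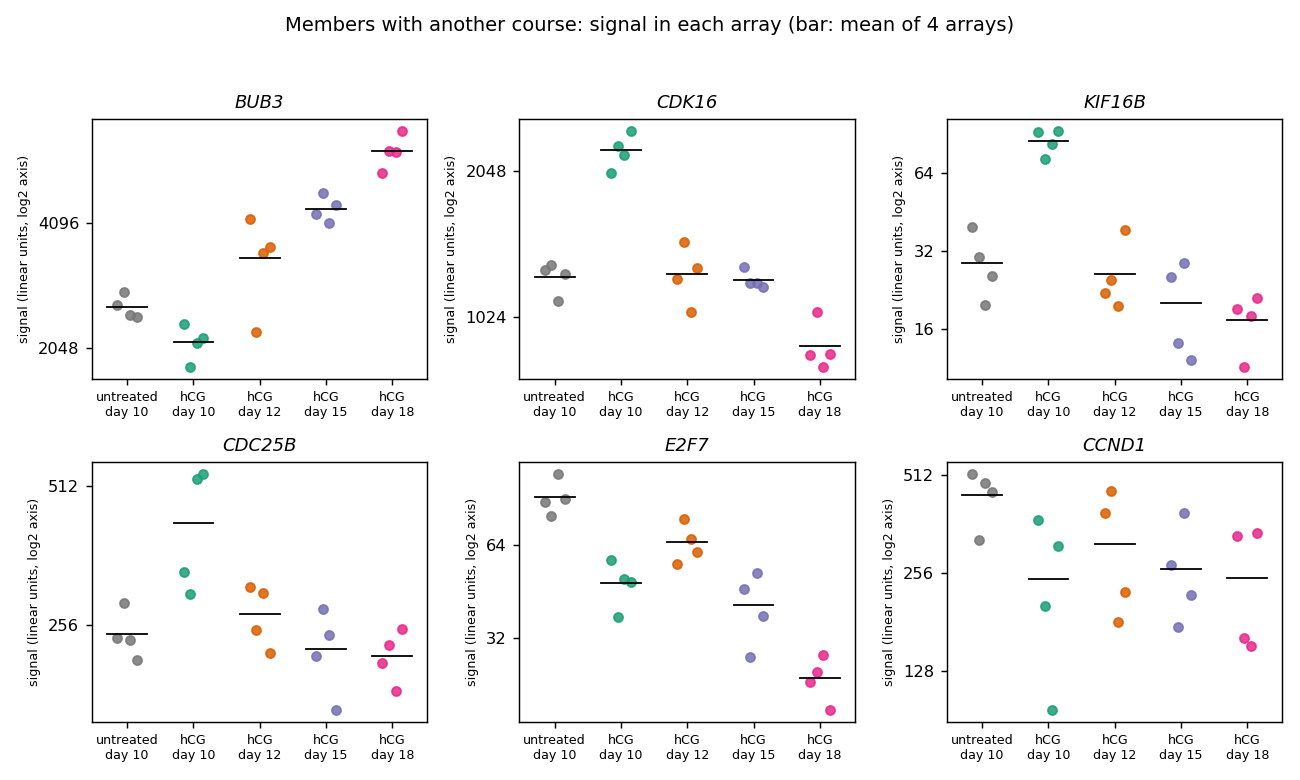
Signal in linear units on a log2 axis of 6 members in each array (points) with the mean of 4 arrays (bar), in the 5 groups from untreated day 10 to hCG day 18. BUB3 has 5388 to 6824 on hCG day 18 and 2430 to 2793 in untreated arrays, CDK16 has 2028 to 2486 on hCG day 10 and 1107 to 1310 in untreated arrays, and CCND1 varies within groups.

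Among the 58 members outside the cell cycle lists CDK16 was the one call on hCG day 18 against untreated, where 3.31% of all genes were lower. Against hCG day 10 the 5 lower ones were CDK16, KIF16B, KIF24, KIF3C and CDK8, where 5.09% of all genes were lower. KIF24, a kinesin that regulates primary cilia, had 27.7, 20.8, 36.3 and 30.8 on hCG day 18 against 66.9, 44.8, 56.8 and 61.0 on hCG day 10 (-0.71 ± 0.18, adjusted p = 0.022, limma), and its call ended in 5 of the 20 fits with 1 array left out. The call of CDK8, a kinase of the Mediator complex, ended in 10 of them, and that of KIF3C in 3. Another probe set of KIF3C was at -0.12 (adjusted p = 0.78, limma), and the KIF3C call ended when probe sets were averaged. Other probe sets of CDK8 were at -0.952 (adjusted p = 0.0018, limma), -0.355 (adjusted p = 0.27) and -0.445 (adjusted p = 0.3). CDC42, the GTPase of cell polarity, averaged 2908 ± 783 on hCG day 18 and 3394 ± 681 in untreated arrays (SD, n = 4 each). CDC42 and its 6 measured effectors and partners gave no call on hCG day 18 against untreated and no unadjusted p under 0.05 by limma. CDC14A, a phosphatase of the cell cycle and of cilia, had the largest change among the 6 other CDC genes on hCG day 10, with 152, 78.1, 51.9 and 70.1 on hCG day 10 against 298, 172, 184 and 160 in untreated arrays (-1.12 ± 0.30, adjusted p = 0.091, limma). CDC37, a chaperone partner for kinases, averaged 1309 ± 150 on hCG day 18 and 1446 ± 169 in untreated arrays (SD, n = 4 each; log2 change -0.14). CDC73, of the transcription complex PAF1, was at -0.24, and CDK19, a paralogue of CDK8, was at 0.32 with means of 713 ± 51.5 on hCG day 18 and 574 ± 85.3 in untreated arrays. AURKAIP1, MCM3AP and CDC14C, which fell in no role list, were at -0.25, -0.15 and -0.40 and were not called.

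Other genes of the cell cycle that the naming rule does not take were read beside the members. Of a list of 77 such genes, set with earlier results of these data known, 57 were measured. On hCG day 18 against untreated 20 of them fell and none rose, beside 3.31% and 2.78% of all genes tested. Their median log2 change was -0.54, and 46 of the 57 were below 0, to be read beside the share of all genes given above. GMNN, geminin, which blocks a new round of origin licensing, was at 0.61 and not called there, and it rose on hCG day 15 against hCG day 10 (1.20, adjusted p = 0.018, limma). CHEK2, a kinase of the DNA damage checkpoint, rose on hCG day 18 against hCG day 10 (0.47, adjusted p = 0.018, limma). In that comparison 19 of the 57 fell, beside 5.09% of all genes tested. UHRF1, which keeps DNA methylation through replication, had 60.8, 48.0, 94.3 and 35.2 on hCG day 18 against 223, 179, 250 and 188 in untreated arrays (-1.63 ± 0.21, adjusted p = 0.00013, limma). FOXM1, the transcription factor of many mitotic genes, had 43.3, 39.2, 47.3 and 33.1 on hCG day 18 against 131, 142, 161 and 119 in untreated arrays (-1.44 ± 0.20, adjusted p = 0.00028, limma). Neither gene overlapped between these groups. CDKN3, a phosphatase that acts on CDKs, KIFC1, a minus-end kinesin of the spindle, NUF2 of the outer kinetochore and GTSE1, a microtubule protein of dividing cells, fell by 1.45, 1.20, 1.55 and 1.64 on the log2 scale. TYMS, thymidylate synthase, fell by 1.63, and CKS2, a subunit bound to CDKs, fell by 0.84. Of the CDK inhibitors, CDKN1A, p21, at 0.58 (adjusted p = 0.19, limma) and CDKN1B, p27, at -0.14 (adjusted p = 0.85) were not called against untreated. CDKN2C, a further inhibitor, was not called there either (-0.29, adjusted p = 0.31, limma). It fell on hCG day 18 against hCG day 10 (-0.58, adjusted p = 0.017, limma). CDKN1A had 2101, 1564, 1360 and 1790 on hCG day 18 and 1690, 1120, 1019 and 813 in untreated arrays, which overlap. RB1, the retinoblastoma gene that holds back E2F factors, was at -0.15 (adjusted p = 0.69, limma).

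Genes with the most similar course were looked for across the 20 arrays, starting from CCNB1. Among members Pearson's r with CCNB1 on the log2(signal + 16) scale was 0.986 for CCNB2, 0.976 for KIF23 and KIF2C, 0.969 for NCAPG and 0.956 for MKI67. Outside the members the 5 closest genes were LOC714349 (0.977), CDKN3 (0.964), MELK (0.961), HSF4 (0.96) and IFT46 (0.96). MELK is a kinase of dividing cells, HSF4 is a heat shock factor known from the lens, and IFT46 is a protein of ciliary transport. These values share the arrays and the differences between groups, so r was also taken on deviations from the group means. It was then above 0.5 in 27 of 81 genes with cell cycle roles, or 33.3%, in 2 of the other 58, or 3.45%, and in 3.51% of all genes. On those deviations CCNB2 stood at 0.927, KIF2C at 0.891 and KIF23 at 0.854, while ANLN (0.489), CDCA2 (0.417), CCNE2 (0.371), CCNA2 (0.261) and KIF18A (0.231) lay below 0.5, as did most genes with cell cycle roles. The r values describe these arrays and carry no test.

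Other probe sets of the called genes mostly ran the same way. For the 36 members called on hCG day 18, 22 had further probe sets, 33 in all, and 30 of those changed in the same direction as the one used, 17 of them with an adjusted p under 0.05 by limma. The exceptions were 1 of the 2 further probe sets of CENPN (0.22), 1 of 3 of ANLN (0.28, with a mean signal of 25.3) and 1 of 2 of ORC5 (0.24, with a mean signal of 5.59). For CCNB1 the second probe set was at -1.27 (adjusted p = 0.0009), for TOP2A at -1.87 (adjusted p = 0.00016), and for CDK1 the further ones were at -1.73 and -1.70 (adjusted p = 0.037 and 9.5e-05).

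Markers of other cell types were read in the same arrays. On hCG day 18 against untreated 2.78% of all genes tested were called higher and 3.31% lower. Of 12 macrophage genes 11 were measured and all 11 had a log2 change above 0 in that comparison, with a median of 0.79. CSF1R (1.06) and C1QC (1.08) were the 2 calls, and the rest had adjusted p of 0.094 to 0.59 (limma). On hCG day 18 against hCG day 10 CSF1R, TYROBP, C1QC, C1QB, C1QA, FCGR3 and CD14 were called higher (0.945 to 1.261, adjusted p = 0.0058 to 0.049, limma). There AIF1, MRC1, CD68 and MSR1 were not called, and 2.87% of all genes tested were called higher. The summed signal of the 11 macrophage genes ran from 10571 to 19532 on hCG day 18 and from 4166 to 11551 in untreated arrays. The 14 measured of 16 endothelial genes gave no call on hCG day 18 (limma, 0 with an unadjusted p under 0.05), with sums of 10077 to 12061 on hCG day 18 and 10329 to 11685 in untreated arrays. Fibroblast genes, 7 of 8 measured, had sums of 9637 to 17072 on hCG day 18 and 13362 to 18506 in untreated arrays, and THY1 fell by 1.06. Of smooth muscle and pericyte genes, 6 of 11 measured, KCNJ8 fell by 1.06, and sums were 3455 to 4480 on hCG day 18 and 3918 to 4710 in untreated arrays. The 4 measured of 11 T and NK cell genes summed to 11117 to 14577 on hCG day 18 and 5274 to 12376 in untreated arrays, with no call by limma and 1 unadjusted p under 0.05. Nearly all of that sum was GZMB, with 9912 to 13486 on hCG day 18 and 3896 to 11078 in untreated arrays, while CD8A averaged 80.5 on hCG day 18 and 100.2 in untreated arrays. The 5 measured of 6 B and plasma cell genes summed to 111 to 174 on hCG day 18 and 62.4 to 90.2 in untreated arrays, with CD79A, MS4A1 and MZB1 under a mean of 16 and JCHAIN up by 1.17. The sums of 2 measured of 4 red blood cell genes were 172 to 395 on hCG day 18 and 112 to 157 in untreated arrays. The 7 luteal genes summed to 47305 to 60502 on hCG day 18 and 46189 to 54077 in untreated arrays, while CYP17A1 rose by 2.20 and HSD3B2 and PGR fell by 1.83 and 0.87 on the log2 scale. Each sum follows its brightest probe sets, here STAR (15298 to 18683 on hCG day 18) far more than PGR (50.8 to 65.6). The sums therefore do not measure the content of a cell type. No marker gene was at 0, and the part of other cell types in the fall of the cell cycle genes was not tested. The ratio of the 3' to the 5' actin probe set, a sign of RNA quality, was 0.52 to 0.78 on hCG day 18 and 0.55 to 0.78 in untreated arrays on the log2 scale. It reached 0.73 to 1.23 on hCG day 12 and 0.56 to 1.14 on hCG day 15. The like ratio for GAPDH was 0.67 to 0.99 on hCG day 18 and 0.88 to 1.13 in untreated arrays. The part of RNA quality in the results was not tested.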

How the data were processed

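The deposited values are linear signal intensities per probe set of 20 rhesus arrays, 1 per corpus luteum sample. GCOS is named as software per the submitters' processing notes, and its version, algorithm and detection calls are not given in the sources used here. Probe sets were named from the platform annotation: of 52865, 158 array controls were left out and 52707 tested, and 24956 had 1 symbol, 361 several and 27390 none. Gene IDs of 139 of 140 members carry the same current RefSeq symbol. The members, role lists and tests were chosen with earlier results of these data known. Groups came from the sample labels. Fits used limma 3.58.1 in R 4.3.3 on log2(signal + 16), with 1 mean per group, all 20 arrays and moderated F or contrast tests adjusted over all probe sets; no fit dropped or imputed a value. A fold change on this scale understates that of dim genes. On simulated data for hCG day 18 against untreated, 58 of 100 probe sets changed 2-fold and 93 of 100 changed 4-fold were recovered, and 13 unchanged probe sets were called. Changes were simulated only in probe sets above the median mean signal, so recovery of dimmer members was not examined. Named genes were those with the smallest adjusted p in each comparison (up to 12 per direction) and each role list (up to 4). The brightest and dimmest of a list and a fixed set of common markers were named too. CDC25A, CDK2, KIF22, CDCA3 and further CENP genes were added to complete their lists after values were seen. GMNN, CHEK2 and CDKN2C were added as exceptions, also after values were seen. The number of arrays limits the precision. Alternatives changed the pseudocount, scaling, filter, probe set choice, replicate block and arrays used. Pearson's r was taken over the 20 arrays. Sequences and genome positions were not used here.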

Additional observations from a re-analysis of the deposited data

Results flagged for a closer look

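In 250 groups of 4 arrays (50 named members, 5 groups) 12 had 1 array far from the other 3 by Dixon's gap test, and chance alone flags about 1 in 20 groups. On hCG day 18 replicate 3 lay high for CCNA1 (15.1), CCNB2 (93.2) and CDK1 (175). On hCG day 15 CCNB1 was high in replicate 3 (257), ORC5 was high in replicate 4 (426) and CCNE1 was low in replicate 4 (60.4). On hCG day 12 CDCA2 was high in replicate 1 (66.6). On hCG day 10 MCM2 was high in replicate 3 (367) and KIF2C was low in replicate 2 (112). Among untreated arrays E2F1 (39.5) and AURKA (112) were low in replicate 2, and CDCA8 was low in replicate 4 (150).

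CDK16 was called in opposite directions against untreated, higher on hCG day 10 and lower on hCG day 18, and the difference between the 2 groups was tested directly: hCG day 18 against hCG day 10 gave a log2 change of -1.33 (adjusted p = 2.3e-06, limma). The lower call on hCG day 18 against untreated was seen in 1 of its 4 probe sets and ended in 6 of 20 fits with 1 array left out.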

How the results depend on the processing

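No named result changed direction. For single genes, 3668 values under an alternative kept their call and 491 lost it. The count of members called on hCG day 18 against untreated was 36 and ran from 31 (pseudocount 1, or the 8 arrays of the 2 groups alone) to 40 (the brighter 50% of probe sets). For hCG day 15 against untreated it was 18, and 11 after median-centring, 11 with a pseudocount of 1, 6 without the 3 arrays that stood apart and 4 from the 8 arrays alone. For hCG day 12 against hCG day 10 it was 2, and 1 from the 8 arrays alone. For hCG day 15 against hCG day 10 it was 11, and 6 with a pseudocount of 1, 5 without the 3 arrays that stood apart and 4 from the 8 arrays alone. Leaving out 1 array at a time gave 27 to 38 calls for the F test (36 with all), 2 to 4 for hCG day 10 (3), 8 to 21 for hCG day 15 (18), 28 to 37 for hCG day 18 (36), 2 to 3 for hCG day 12 against hCG day 10 (2), 5 to 17 for hCG day 15 against hCG day 10 (11) and 28 to 40 for hCG day 18 against hCG day 10 (39). The cause was not tested. Counts of 0 stayed at 0 in every setting.

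Replicate numbers do not pair the samples by the labels, and of 40 same-numbered pairs 16 had a correlation of deviations over 0.1 (range -0.393 to 0.472), with 7 of 20 arrays closest to one of their own number. With the replicate number as a block the counts were 37 for the F test, 4, 0, 20 and 37 for hCG days 10, 12, 15 and 18 against untreated, 2 for hCG day 12, 12 for hCG day 15 and 39 for hCG day 18 against hCG day 10, and 0 for both later steps. Limits: genes near background have compressed changes, 2-fold changes were recovered in part of the simulated cases, and the 3 arrays that stood apart had no known cause.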
